A study of Mus musculus with 60 samples.

Results

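Apolipoproteins and the genes of cholesterol efflux were followed in sorted mouse microglia after a neonatal stroke. They are 10 genes of the 55413 in each expression table: Apoe, Apoc1, Apoc2, Lpl, Pltp, Abca1, Abcg1, Nr1h3, Lrp1 and Dgat1. They were chosen by name, and their rows were read in 4 tables that together hold 52 bulk RNA libraries. All mice carried Spp1-CreER and the R26-Tdtomato reporter, in which Spp1 (osteopontin) expression during recombinase activity marks a cell with lasting red fluorescence, called Tdt+. The label records past Spp1 expression and need not match expression at the time of the sort. All groups, contralateral ones included, came from mice with stroke, and no library from an uninjured mouse was analysed here. The labels give no Tdt status for the contralateral libraries, which were read from the columns headed Tdt-negative.

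The day 7 table (postnatal day 13) held contralateral cortex microglia, Tdt- microglia of the stroke cortex and Tdt+ microglia of the stroke cortex, with n = 3 each. The day 28 table (postnatal day 34) held the same groups with n = 4 each. So did a day 28 table with lipopolysaccharide (LPS), a bacterial cell wall component that activates innate immune cells. There too day 28 counts from the stroke (postnatal day 34), and the labels do not give the time of LPS. The time course table held Tdt+ microglia of the stroke cortex at day 3 (postnatal day 9), day 7 and day 14 (postnatal day 20), with n = 5 each, and at day 28, with n = 4. Each library was made from 2000 sorted cells by a full-length method for few cells. Values are in TPM, a measure of relative transcript abundance that corrects for transcript length and sums to the same total in each library. TPM values do not retain read depth, which is unknown.

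Lipids leave and enter brain cells on particles built around apolipoproteins. Apolipoprotein E is the main one of the brain, and apolipoproteins C-I and C-II sit on the same particles, where C-II activates lipoprotein lipase (Lpl) and C-I tends to inhibit lipid exchange and clearance. Cholesterol is loaded onto such particles by the transporters Abca1 and Abcg1, whose genes are textbook targets of the sterol-sensing liver X receptors, of which Nr1h3 encodes the alpha form. Pltp moves phospholipids between particles, the receptor Lrp1 takes up particles that carry apolipoprotein E, and Dgat1 makes triglyceride for storage in droplets. In microglia, Apoe and Lpl are known as marker genes of the disease-associated state.

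The cells carried the microglia signature in all groups: 10 of 10 microglia markers were above 0 in each of the 13 groups. Their summed level differed between groups, as given below. The number of genes at 1 TPM or more was 11544 to 14093 per library. Some libraries stood apart. In the LPS table the libraries numbered 4 had Lpl at 7.83 TPM (contralateral), 4.58 (Tdt-) and 4.13 (Tdt+), while the other 9 held 20.4 to 70.8 TPM. Day 28 contralateral replicate 4 had Lpl at 1.71 TPM against 13.8 to 23.0 in the others of its group. Day 7 Tdt- replicate 3 had 172 TPM summed over neutrophil markers, and the other day 7 libraries had 0. Time course day 14 replicate 2 had 406 TPM summed over erythroid markers, against 0 to 6.35 TPM in the others of its group. Without it, 4 members passed from day 7 to day 14 and 1 from day 14 to day 28, the same counts as with it.

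Apoe, Apoc1 and Apoc2 lie together on chromosome 7 (GRCm38), Apoe at 19696244 to 19701310, Apoc1 at 19689480 to 19692659 and Apoc2 at 19671579 to 19677941, a span of 29.7 kb. Apoc2 lies inside Gm44805, a readthrough gene that also covers Apoc4, so the split of reads between these 3 genes is uncertain. Gm44805 was listed at 0 in all 52 libraries. Pltp shares part of its span with Ctsa, and Nr1h3 with Acp2 and Gm23390. Lrp1 shares part of its span with Gm16217 and Gm51820. Whether the counting used strand is not given in the sources used here, so reads in the shared stretches cannot be assigned with certainty. Apoe, Apoc1 and the next 4 overlap no annotated gene: Lpl on chromosome 8 at 68880555 to 68906932, Abca1 on chromosome 4 at 53030789 to 53159988, Abcg1 on chromosome 17 at 31057694 to 31117984 and Dgat1 on chromosome 15 at 76502012 to 76512021. Pltp lies on chromosome 2 at 164839518 to 164857708, Nr1h3 on chromosome 2 at 91184061 to 91202829 and Lrp1 on chromosome 10 at 127538157 to 127621148.

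**Figure D1:**
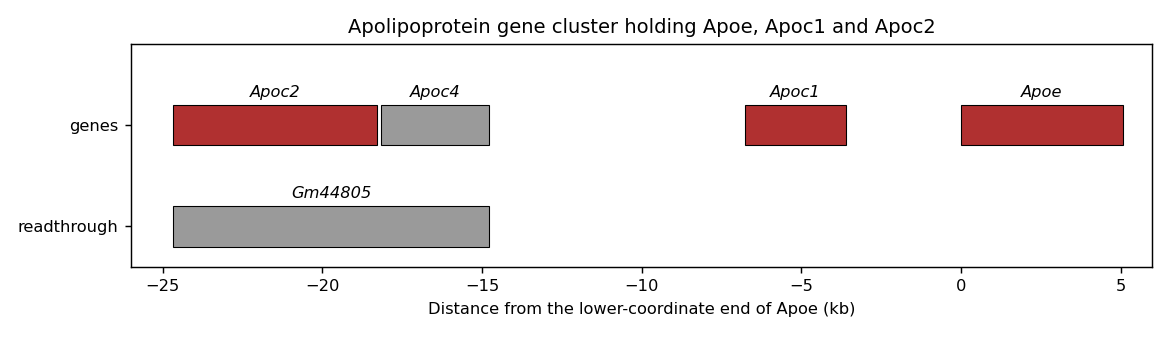
Map of the apolipoprotein cluster, with distance in kb from the lower-coordinate end of Apoe on the horizontal axis. Red bars are Apoe, Apoc1 and Apoc2, and grey bars are Apoc4 and the readthrough gene Gm44805, which covers both Apoc2 and Apoc4.

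The time course followed Tdt+ microglia from day 3 (postnatal day 9) to day 28 (postnatal day 34) after stroke. It held no contralateral or uninjured group, so time after injury and age cannot be told apart. From day 3 to day 7, 7 of the 10 genes fell and 2 rose in the limma fit on log2(TPM + 1), with p-values adjusted over all genes tested. The 7 were the 3 apolipoproteins, the lipase Lpl, the transfer protein gene Pltp and the exporters Abca1 and Abcg1. The 2 that rose were Lrp1 and Dgat1. Apoc2 entered the test only through day 3, where it was high, so its fall is a description, and 6 genes fell without it. Over all 15316 genes tested, 4.42% fell and 9.93% rose in that step. An unadjusted p below 0.05 was reached by 9 of the 10 and by 27.2% of all genes. The 2 days did not overlap in 6 genes that were lower at day 7 and in 2 that were higher, as in 4.17% and 8.3% of all genes. The members' median log2 fold was -0.85, and that of all genes tested 0.18.

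The promoters of 4 of the genes that fell together are shown, so that the start regions of an apolipoprotein pair, a transfer protein and an exporter can be compared. They are RefSeq windows of GRCm38.p6, 250 bases before to 50 bases after the transcript start, all on the minus strand. RefSeq windows were found for 6 of the 10 genes (9 windows in all), and Apoc1, Lpl, Abcg1 and Dgat1 are named only. Capitals mark 6-base nuclear receptor motifs of the kind bound by liver X receptors with their partner. The search used the motif AGGTCA, its variants GGGTCA and also AGTTCA, then the forms GGTTCA and also AGGTTA, and last CGGTCA, each on both strands. A minus strand match appears as its reverse complement. The windows are chr7:19699139-19699438 for Apoe (the first of its 3 windows), chr7:19677892-19678191 for Apoc2, chr2:164857659-164857958 for Pltp and chr4:53159846-53160145 for Abca1.
Apoe: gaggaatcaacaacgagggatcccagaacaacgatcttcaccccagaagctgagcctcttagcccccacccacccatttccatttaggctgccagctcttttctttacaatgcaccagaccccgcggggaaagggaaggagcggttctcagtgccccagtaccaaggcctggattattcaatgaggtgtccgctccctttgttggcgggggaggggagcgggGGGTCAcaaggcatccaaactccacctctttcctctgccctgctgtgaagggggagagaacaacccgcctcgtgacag
Apoc2: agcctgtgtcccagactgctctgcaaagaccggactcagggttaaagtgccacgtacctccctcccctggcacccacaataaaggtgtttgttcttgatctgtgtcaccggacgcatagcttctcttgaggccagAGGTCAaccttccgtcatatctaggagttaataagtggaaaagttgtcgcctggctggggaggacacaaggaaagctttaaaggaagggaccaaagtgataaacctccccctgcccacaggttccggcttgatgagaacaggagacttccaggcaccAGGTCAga
Pltp: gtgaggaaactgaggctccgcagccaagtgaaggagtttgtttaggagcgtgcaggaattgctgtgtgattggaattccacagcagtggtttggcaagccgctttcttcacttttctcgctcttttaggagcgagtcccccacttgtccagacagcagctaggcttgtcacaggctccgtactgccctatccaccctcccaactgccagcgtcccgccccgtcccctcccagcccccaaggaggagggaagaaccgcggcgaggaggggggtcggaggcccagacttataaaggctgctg
Abca1: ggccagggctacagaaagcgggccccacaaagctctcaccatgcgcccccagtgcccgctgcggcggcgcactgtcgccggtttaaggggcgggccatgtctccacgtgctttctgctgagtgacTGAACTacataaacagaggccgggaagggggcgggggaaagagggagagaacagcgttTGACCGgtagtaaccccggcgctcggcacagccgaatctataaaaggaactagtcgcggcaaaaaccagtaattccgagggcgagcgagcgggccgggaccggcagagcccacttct

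The Apoe window held GGGTCA beginning 28 bases before the start, the Apoc2 window AGGTCA at 2 places, and the Abca1 window AGTTCA and CGGTCA on the minus strand. The Pltp window held none. No 2 of these matches overlapped. Such a 6-base motif was present in 4 of the 9 windows of the members and in 51.3% of 32851 mouse windows of the same length. The paired form was 2 of the searched motifs in 1 orientation with 4 bases between them. It was in 0 of the 9 windows and in 0.14% of all windows. Pairs with a motif outside the searched list could not be found. On the minus strand the Abca1 window reads GGGTTA, 4 bases and then CGGTCA, and GGGTTA was not on that list. A match in a window is a description of its letters only.

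Apoe was the most abundant of the 10 genes in each group. At day 3 the 5 libraries held 45469, 41844, 33864, 43707 and 42920 TPM, which is 4.16% ± 0.45 (SD, n = 5) of all transcripts. At day 7 they held 24527, 16852, 32032, 12512 and 22301 TPM. At day 14 the values were 4544, 5061, 5911, 5694 and 6223 TPM, and at day 28 they were 2083, 1986, 1726 and 1803 TPM. No day 7 library reached the lowest day 3 library, and no later group overlapped the one before it. The day 7 libraries spread most, by an SD of 34.5% of their mean, against 8.62% to 12.3% in the other 3 groups. Apoe fell by 1.01 ± 0.17 (log2, SE) from day 3 to day 7 (adjusted p = 0.000347). It fell by 1.92 ± 0.17 from day 7 to day 14 (adjusted p = 2.02e-06) and fell by 1.52 ± 0.18 from day 14 to day 28 (adjusted p = 6.06e-05). The day 28 mean was 4.57% of the day 3 mean. With quantile normalization of the libraries the step from day 3 to day 7 was -0.61, with an adjusted p of 0.107, and did not pass.

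Apoc1 followed the same order at a much lower level. The day 3 libraries held 420, 237, 227, 140 and 200 TPM, and the day 7 libraries 29.9, 62.4, 31.4, 18.1 and 51.6 TPM. On day 14 they held 0, 3.46, 7.09, 4.93 and 0 TPM, and at day 28 Apoc1 was listed at 0 in 4 of 4 libraries. Each group stood below the one before without overlap up to day 14. It fell by 2.66 ± 0.49 (log2) from day 3 to day 7 (adjusted p = 0.000791) and fell by 3.64 ± 0.49 from day 7 to day 14 (adjusted p = 0.000115). With a pseudocount of 0.1 in place of 1, the first of these steps had an adjusted p of 0.0583. From day 14 to day 28 the adjusted p was 0.0819, and no fold is given because day 28 was at 0. Without day 14 replicate 1 that step had an adjusted p of 0.0213, and without day 14 replicate 5 it had 0.027.

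Apoc2 was read mainly at day 3. The day 3 libraries held 33.8, 18.4, 14.39, 6.52 and 30.7 TPM. At day 7 only replicate 3 had a value above 0 (11.1 TPM), at day 14 only replicate 5 (7.97 TPM) and at day 28 only replicate 2 (2.22 TPM). The groups of day 3 and day 7 overlapped through that day 7 replicate. From day 3 to day 7 it fell by 3.53 ± 0.71 (log2, adjusted p = 0.00169), on a scale where the added 1 TPM sets the size for genes this low. Apoc4, its neighbour, held 10.0, 13.4, 2.57, 5.90 and 3.54 TPM at day 3 and was at 0 in all but 1 library of each later group.

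Lpl, which splits triglyceride on particles, held 220, 340, 258, 293 and 338 TPM at day 3. It held 66.8, 74.2, 54.7, 80.2 and 74.0 TPM at day 7, and 41.7, 48.3, 22.3, 38.2 and 28.8 TPM at day 14. Day 28 libraries held 30.6, 26.7, 43.9 and 26.2 TPM. The first 3 groups stood apart from each other, and day 28 overlapped day 14. Lpl fell by 2.03 ± 0.19 (log2) from day 3 to day 7 (adjusted p = 3.02e-07) and fell by 0.98 ± 0.19 from day 7 to day 14 (adjusted p = 0.00329). From day 14 to day 28 its adjusted p was 0.728. The mean at day 28 was 10.99% of that at day 3.

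Pltp held 32.0, 54.8, 32.1, 37.4 and 32.8 TPM at day 3, and 9.75, 0.65, 2.87, 7.46 and 0.74 TPM at day 7. At day 14 the range was 0 to 9.34 TPM and at day 28 it was 0 to 4.88 TPM. All later groups stayed below the lowest day 3 library and overlapped each other. To day 7 it fell by 3.25 ± 0.63 (log2, adjusted p = 0.00118), and the later steps had adjusted p of 0.917 and 0.402.

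The exporters Abca1 and Abcg1 were at 92.4 TPM or more in all 19 libraries. Abca1 held 256, 262, 300, 279 and 311 TPM at day 3 and 209, 192, 159, 166 and 176 TPM at day 7. It held 125, 144, 98.3, 104 and 162 TPM at day 14 and 124, 133, 133 and 122 TPM at day 28. Day 3 stood above day 7 without overlap, day 7 and day 14 overlapped by 1 library, and days 14 and 28 overlapped. Abca1 fell by 0.64 ± 0.12 (log2, adjusted p = 0.00112) and then fell by 0.53 ± 0.12 (adjusted p = 0.0118), and the last step had an adjusted p of 0.9. Without the intensity trend of the variance estimate the step to day 14 had an adjusted p of 0.0516. Abcg1 held 293, 238, 233, 276 and 252 TPM at day 3 and 182, 175, 150, 130 and 164 TPM at day 7. It fell by 0.69 ± 0.16 (log2, adjusted p = 0.00488) without overlap. Its day 14 range of 92.4 to 178 TPM overlapped day 7 (adjusted p = 0.171), and its day 28 range was 98.0 to 130 TPM. Quantile normalization gave the step from day 7 to day 14 an adjusted p of 0.0382, and leaving out day 14 replicate 5 gave 0.0461. From day 3 to day 28 Abca1 fell by 1.13 ± 0.13 (adjusted p = 8.57e-07) and Abcg1 fell by 1.16 ± 0.17 (adjusted p = 1.46e-05), with day 28 means at 45.4% and 44.8% of day 3.

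The receptor Lrp1 held 231, 230, 238, 197 and 266 TPM at day 3 and 327, 302, 284, 311 and 332 TPM at day 7, with no overlap. It rose by 0.42 ± 0.14 (log2, adjusted p = 0.0455), and 8 of 10 runs that left out a day 3 or day 7 library gave adjusted p above the threshold, up to 0.123. Quantile normalization gave 0.106. Later ranges were 202 to 361 TPM at day 14 and 251 to 352 TPM at day 28. Dgat1 held 19.7, 25.7, 26.6, 26.3 and 24.1 TPM at day 3 and 33.8, 35.1, 35.1, 38.5 and 59.9 TPM at day 7, again with no overlap. It rose by 0.68 ± 0.18 (log2, adjusted p = 0.0133). Its day 14 range was 27.9 to 45.4 TPM, and the day 28 libraries held 49.3, 56.0, 58.0 and 43.1 TPM. Dgat1 was higher at day 28 than at day 3 by 1.04 ± 0.19 (adjusted p = 0.000179), a value that was 0.53 with quantile normalization (adjusted p = 0.0209). Nr1h3 was near the floor, with ranges of 0 to 2.87, 0 to 5.03, 0 to 1.90 and 0.37 to 10.3 TPM in order of day. It passed the test in none of the steps, and its adjusted p from day 3 to day 28 was 0.0935, or 0.026 without day 28 replicate 3 (log2 1.86).

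**Figure D2:**
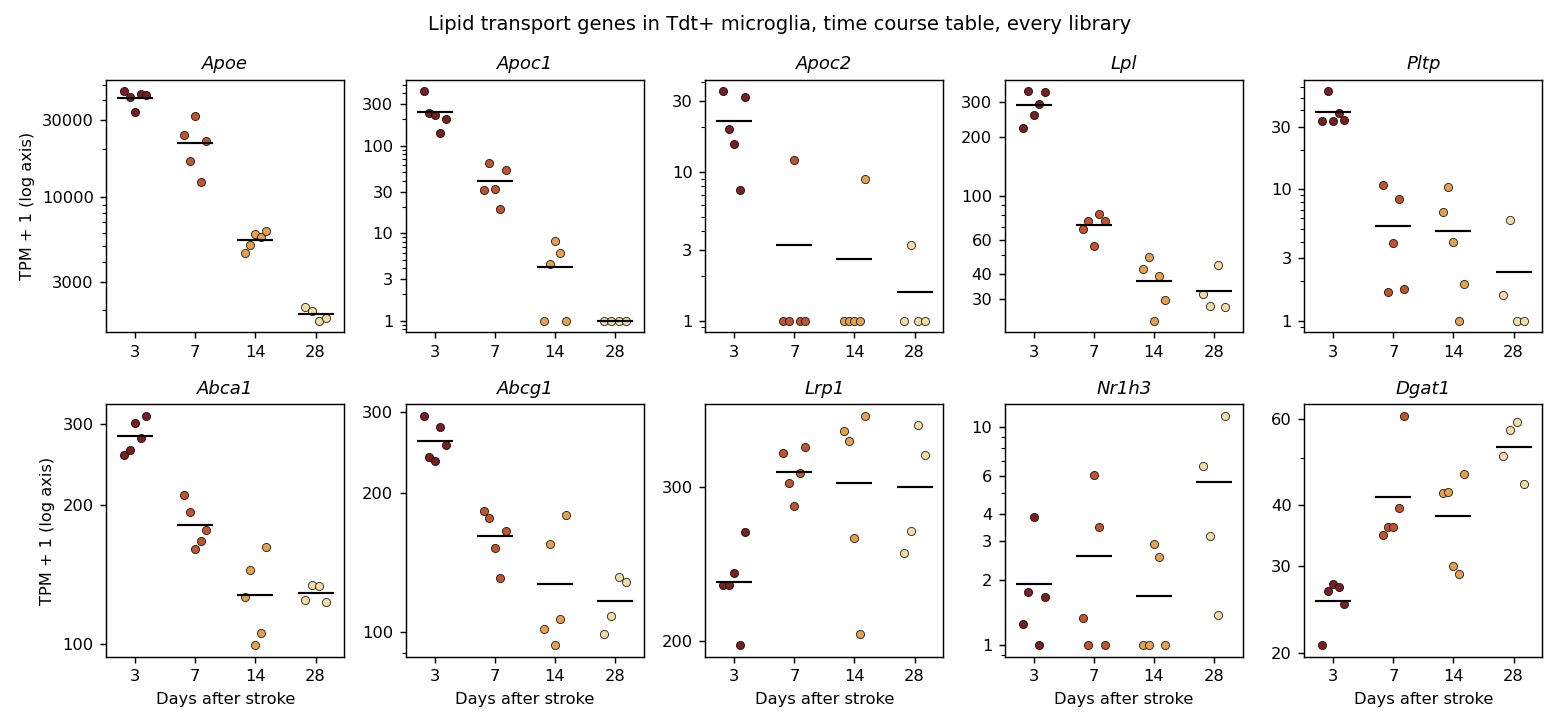
TPM + 1 on a log axis for the 10 genes in every Tdt+ library of the time course, by day after stroke, with points for libraries and a bar for the mean. Apoe falls from 33864 to 45469 TPM at day 3 to 1726 to 2083 TPM at day 28, while Lrp1 and Dgat1 at day 7 lie above day 3.

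Across the whole course, day 28 against day 3, 7 of the 10 genes were lower and Dgat1 was higher, or 6 lower without Apoc2, which was tested through its day 3 level alone. The background for this comparison is wide: 35.6% of all genes tested were higher and 7.97% lower. The later steps called fewer members. From day 7 to day 14, 4 fell (Apoe, Apoc1, Lpl and Abca1) and none rose, where 1.54% of all genes fell and 4.46% rose. From day 14 to day 28 Apoe alone fell, where 2.21% of all genes fell and 4.06% rose. The median of all genes tested was above 0, at 0.18, 0.14 and 0.18 for the 3 steps and at 0.56 for day 28 against day 3. Relative to that median the first step was -1.19 for Apoe, -0.82 for Abca1, -0.87 for Abcg1, 0.24 for Lrp1 and 0.50 for Dgat1. Relative to it, the difference from day 3 to day 28 was 0.49 for Dgat1 and -0.20 for Lrp1, which was 0.35 before this shift (adjusted p = 0.0581). Quantile normalization brought these 4 medians to 0.04, 0.00, 0.00 and 0.09, and the split of all calls then moved from 1521 higher of 2198 to 904 of 1790 in the first step. It moved from 683 of 919 to 367 of 684 in the second step, from 622 of 961 to 371 of 799 in the third, and from 5460 of 6681 to 2021 of 4047 from day 3 to day 28.

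**Figure D3:**
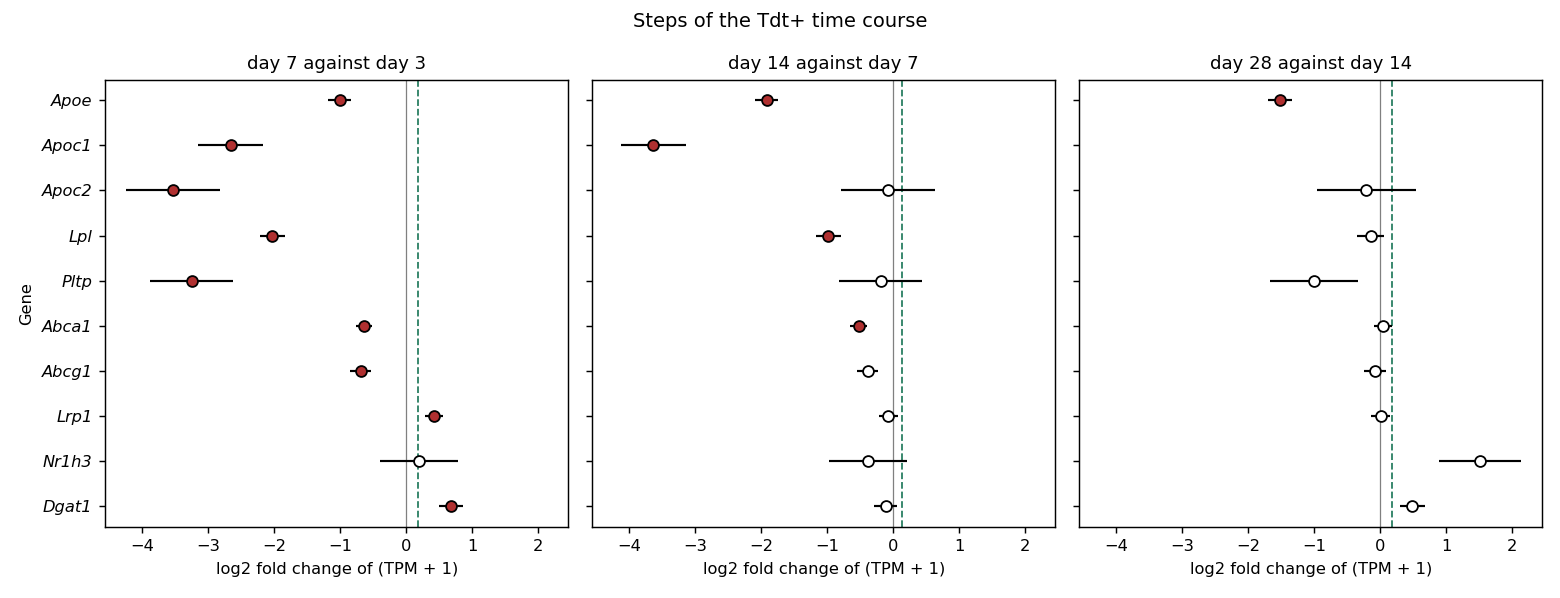
Log2 fold change of TPM + 1 with its SE for the 10 genes in the 3 steps of the Tdt+ time course. Red points passed an adjusted p of 0.05, white points did not, and the dashed green line is the median of all genes tested. Apoc1 has no point from day 14 to day 28 because it was listed at 0 at day 28.

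Markers of other cells moved with these genes. The 8 border macrophage markers summed to 193 to 249 TPM at day 3, with 8 of 8 above 0. They summed to 27.8 to 40.2 TPM at day 7, 13.6 to 36.7 TPM at day 14 and 8.38 to 43.3 TPM at day 28. Cd163 and Lyve1 were at 0 in every library of the 3 later groups. The 10 microglia markers summed to 17722 to 21657 TPM at day 3 and to 31485 to 36756 TPM at day 7, with 40308 to 42687 TPM at day 14 and 33967 to 39407 TPM at day 28. Astrocyte markers summed to 25.5 to 36.7 TPM at day 3, 36.4 to 79.8 at day 7, 82.8 to 163 at day 14 and 114 to 121 TPM at day 28. Most of this was 1 gene, Slc1a3, with means of 22.4, 50.2, 102 and 114 TPM. Astrocyte markers at a mean of 1 TPM or more numbered 4, 1, 4 and 2 of 8 in order of day. Endothelial markers summed to 3.07 to 12.3 TPM at day 3 and 16.9 to 23.8 TPM at day 7. Pecam1 was highest among them, at means of 2.77 and 11.9 TPM, and Cldn5 was at 0 in every time course library. These markers' part in the falls of Apoe, Apoc1, Apoc2, Lpl, Pltp, Abca1 and Abcg1 and the rises of Lrp1 and Dgat1 was not tested. In bulk samples, fewer cells of a kind and less RNA per cell cannot be told apart.

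Other genes of lipid handling were read as 6 lists with 56 genes, of which 43 were tested in the time course. From day 3 to day 7, 14 of the 43 fell and 4 rose (4.42% and 9.93% of all genes), with a median log2 fold of -0.17 against 0.18 for all genes tested. Most of the falls were among genes of ester storage and droplets, where 8 of 15 fell and 2 rose. Fabp5, a fatty acid carrier, went from 172 ± 30 TPM to 7.63 ± 4.52 TPM (log2 -4.48 ± 0.50, adjusted p = 2.40e-06, n = 5 each). Fabp3, a related carrier, went from 26.1 ± 8.7 to 3.51 ± 4.34 TPM (log2 -3.05 ± 0.56, adjusted p = 0.000672). Plin2, which coats lipid droplets, went from 275 ± 21 to 51.0 ± 7.1 TPM (log2 -2.42 ± 0.17, adjusted p = 4.87e-09). Among lipoprotein receptors 2 of 8 fell, led by the scavenger receptor Msr1, from 15.0 ± 7.2 to 1.72 ± 2.32 TPM (log2 -2.82 ± 0.47, adjusted p = 0.000265). Trem2, a lipid-sensing receptor of microglia, held 1370.5 ± 67.4 TPM at day 3 and 1345 ± 81 TPM at day 7 (adjusted p = 0.856). Of 12 partners and further targets of the liver X receptors that were tested, 2 rose and 2 fell. From day 3 to day 28, 8 of the 43 were higher and 13 lower, where 35.6% of all genes were higher and 7.97% lower. The largest folds were those of Fabp5 (log2 -5.50 ± 0.53, adjusted p = 7.41e-08) and Fabp3 (log2 -4.39 ± 0.59, adjusted p = 5.77e-06).

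From day 7 to day 14, 4 of the 43 rose and 1 fell (4.46% and 1.54% of all genes). Lipe, the hormone-sensitive lipase, rose by 0.75 ± 0.16 (log2, adjusted p = 0.00671), and Stard3, a sterol carrier of late endosomes, rose by 0.69 ± 0.15 (adjusted p = 0.00787). Lrpap1, the chaperone of Lrp1 and its relatives, rose by 0.48 ± 0.11 (adjusted p = 0.0126), a call that quantile normalization ended (adjusted p = 0.133). Scd2, a fatty acid desaturase, fell by 0.69 ± 0.13 (adjusted p = 0.00233). The fourth gene to rise was Trem2, at 1595 ± 106 TPM on day 14 (log2 0.24 ± 0.07, adjusted p = 0.0457). From day 14 to day 28, 1 of the 43 fell, a share near the 2.21% of all genes that fell. It was the fatty acid receptor Cd36, from a mean of 2.86 TPM to 0.14 TPM (log2 -1.67 ± 0.47, adjusted p = 0.0361). Without a filter on low values its adjusted p was 0.0857. It was above the threshold without day 14 replicate 1, 2 or 4 and without any 1 of the 4 day 28 libraries, up to 0.0921.

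The day 7 table sets Tdt+ cells of the injured hemisphere beside cells of the uninjured one. Apoe was higher in Tdt+ cells, by 1.66 ± 0.17 (log2, SE, adjusted p = 0.0058, n = 3 each), the 1 of the 10 genes to pass. The contralateral libraries held 15304, 16333 and 19091 TPM, the Tdt- libraries 21137, 26950 and 35475 TPM and the Tdt+ libraries 59288, 44533 and 57351 TPM. The 3 groups did not overlap, and Apoe made up 5.37% ± 0.80 of Tdt+ transcripts. Of 12637 genes tested, 0.0554% (7 genes) were higher at this threshold and 0.0712% were called in either direction (0.0158% lower). At an unadjusted p below 0.05 there were 7.18% of all genes. Without Tdt+ replicate 1 the adjusted p was 0.0508. It was 0.0833 without a filter on low values, 0.113 without the intensity trend and 0.0306 with quantile normalization. Over the 6 alternative settings it ranged from 0.00098 to 0.113.

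Apoc1, Apoc2 and Abca1 also lay above the contralateral range in each Tdt+ library of day 7, as did 5.7% of all genes tested. They did not pass after adjustment. Apoc1 held 24.5, 10.9 and 18.8 TPM in contralateral, 10.1, 62.5 and 54.0 in Tdt- and 61.7, 132 and 84.6 TPM in Tdt+ libraries (log2 2.30 ± 0.58 for Tdt+ against contralateral, adjusted p = 0.293). Apoc2 held 0, 13.4 and 19.3 TPM in contralateral, 9.74, 33.2 and 63.0 in Tdt- and 41.4, 64.8 and 84.0 TPM in Tdt+ libraries (log2 3.22 ± 0.98, adjusted p = 0.447). Abca1 held 20.5, 22.8 and 15.9 TPM in contralateral, 41.8, 28.8 and 32.9 in Tdt- and 41.1, 28.12 and 27.8 TPM in Tdt+ libraries (log2 0.67 ± 0.27, adjusted p = 0.612). In Abca1 the Tdt+ and Tdt- libraries shared 1 range, above the contralateral libraries. For Lpl the group means were 21.4 ± 7.1, 23.9 ± 0.8 and 21.2 ± 11.02 TPM in contralateral, Tdt- and Tdt+ libraries. For Abcg1 they were 570 ± 79, 564 ± 64 and 581 ± 120 TPM, for Lrp1 193 ± 45, 223 ± 26 and 192 ± 22 TPM, and for Dgat1 86.1 ± 18.4, 86.3 ± 33.0 and 90.1 ± 20.4 TPM. In these 4 genes the groups overlapped. Pltp and Nr1h3 ranged from 0 to 11.2 and from 0 to 6.15 TPM over the 9 libraries.

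Within the stroke cortex at day 7, none of the 10 genes passed for Tdt+ against Tdt- cells, where 0.0158% of all genes (2 genes) passed. Unadjusted p was below 0.05 for 662 genes (5.24%). Nearest was Apoe (log2 0.97 ± 0.17, adjusted p = 0.425), whose groups did not overlap, which held for 4.05% of all genes in that direction. Leaving out 1 library gave Apoe an adjusted p between 0.0502 and 0.69, and quantile normalization gave a log2 difference of 0.56 (adjusted p = 0.819). None passed for Tdt- against contralateral cells either, where 0.00791% of all genes (1 gene) passed and 718 (5.68%) reached an unadjusted p below 0.05. There Apoe (log2 0.69 ± 0.17, adjusted p = 0.642) and Abca1 (log2 0.77 ± 0.27, adjusted p = 0.856) lay above the contralateral range without overlap, as did 6.16% of all genes. Border macrophage markers at day 7 summed to 55.6 to 207 TPM in contralateral, 179 to 208 in Tdt- and 118 to 380 TPM in Tdt+ libraries, with 8, 8 and 6 of 8 markers above 0. Cd163 and Lyve1 were at 0 in Tdt+ libraries. The 10 microglia markers summed to 39715 to 46365 TPM in contralateral, 35730 to 45336 in Tdt- and 31074 to 33890 TPM in Tdt+ libraries. The Tdt+ range lay below both others. Endothelial markers summed to 5.52 to 8.68 TPM in contralateral and 1.02 to 4.83 TPM in Tdt+ libraries. Pecam1 was highest among them, at means of 6.41 and 1.42 TPM. The part of these markers in the Apoe difference was not tested. Of 38 pathway genes tested at day 7, 0 passed in any of the 3 comparisons. Nearest for Tdt+ against contralateral cells was Msr1 (log2 2.17 ± 0.53, adjusted p = 0.266).

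**Figure D4:**
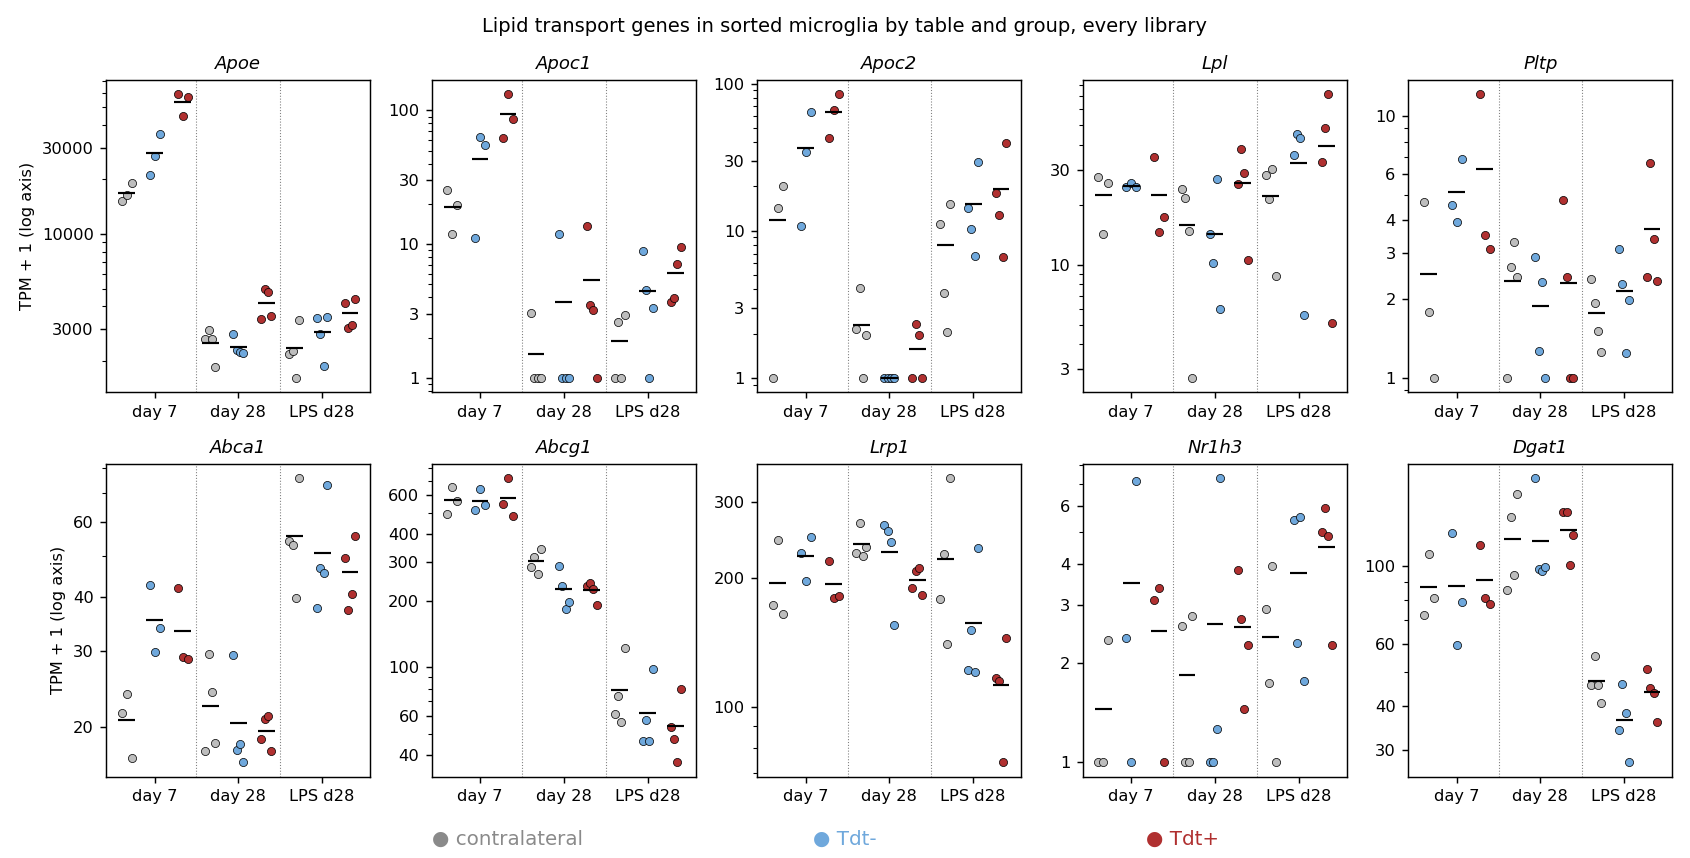
TPM + 1 on a log axis for the 10 genes in every library of the day 7, day 28 and day 28 with LPS tables, with contralateral libraries in grey, Tdt- in blue and Tdt+ in red and a bar for each mean. Apoe at day 7 lies lowest in contralateral and highest in Tdt+ libraries without overlap, and levels in different tables were not tested against each other.

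At day 28 no gene of the set passed in any comparison, and neither did any other gene: 0% of 12710 genes tested were called by limma in each of the 3 comparisons. At an unadjusted p below 0.05 there were 585 genes (4.6%) for Tdt+ against contralateral, 473 (3.72%) for Tdt+ against Tdt- and 575 (4.52%) for Tdt- against contralateral. Apoc2 did not pass the filter and was at or below 3.11 TPM in all 12 libraries. Apoc1 and Nr1h3 would not have passed it without the Tdt+ group, which held 3 of their 5 and 6 libraries at 1 TPM or more. Apoe held 2622, 2964, 2627 and 1855 TPM in contralateral, 2808, 2280, 2222 and 2215 in Tdt- and 3412, 4987, 4773 and 3547 TPM in Tdt+ libraries. The Tdt+ libraries lay above both other groups without overlap, as did 1.22% of all genes against contralateral and 1.03% against Tdt- libraries. The log2 difference was 0.73 ± 0.15 (adjusted p = 0.631) against contralateral and 0.80 ± 0.15 (adjusted p = 0.667) against Tdt- cells. Abcg1 held 284, 315, 264 and 341 TPM in contralateral and 233, 239, 224 and 190 TPM in Tdt+ libraries (log2 -0.44 ± 0.14, adjusted p = 0.991). Lrp1 held 224 to 268 TPM in contralateral and 181 to 210 TPM in Tdt+ libraries. In both genes the Tdt+ range lay below the contralateral range, as for 1.46% of all genes. Endothelial markers summed to 18.4 to 38.3 TPM in contralateral and at most 15.0 TPM in Tdt+ libraries, and their part was not tested. Pecam1 was highest among them, at means of 27.7 and 12.4 TPM. In the other 6 members tested Tdt+ and contralateral libraries overlapped. Lpl was at 24.6 ± 11.4 TPM in Tdt+ and 14.8 ± 9.5 TPM in contralateral libraries, Abca1 at 18.6 ± 1.7 and 21.4 ± 5.6 TPM, and Dgat1 at 126 ± 20 and 118 ± 36 TPM. Apoc1, Pltp and Nr1h3 were at or below 12.7, 3.77 and 2.85 TPM in these 2 groups.

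Whether the difference between Tdt+ and contralateral cells was the same at day 28 as at day 7 was tested as an interaction over 11919 genes, of which 0% passed and 686 had an unadjusted p below 0.05. For Apoe the interaction, the day 28 difference less the day 7 difference, was -0.93 ± 0.25 (log2, adjusted p = 0.481), or -1.48 with quantile normalization (adjusted p = 0.373), and for Abca1 it was -0.84 ± 0.35 (adjusted p = 0.79). None of the 9 members tested passed. Of 35 pathway genes tested at day 28, 0 passed.

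After LPS the same 3 groups were compared at day 28. In Tdt+ against contralateral cells none of the 10 genes passed, while 1.35% of 13397 genes (181) did, 0.896% higher and 0.455% lower. At an unadjusted p below 0.05 there were 4 of the 10 and 11.5% of all genes. Replicate numbers were taken to pair these 2 groups, though the labels do not say that equal numbers are the same animal. Residuals of same-numbered libraries correlated at 0.194 to 0.551, and those of other libraries at -0.352 to 0.166. The block covered all 3 groups, although Tdt- with contralateral libraries did not meet the rule used for pairing. With the number as a block 4 of the 10 genes passed. Apoe and Apoc2 were then higher and Abcg1 and Lrp1 lower in Tdt+ cells, where 2.41% of all genes were called higher and 4.53% lower (6.94% in all). Without the libraries numbered 4 and without the block, 0 of the 10 passed.

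Apoe held 2174, 2248, 1607 and 3370 TPM in contralateral, 3443, 2796, 1861 and 3470 in Tdt- and 4145, 3046, 3157 and 4400 TPM in Tdt+ libraries. It was higher in Tdt+ than in contralateral cells in 4 of 4 numbered pairs, though the group ranges overlapped. The log2 difference was 0.68 ± 0.24 (adjusted p = 0.271), or 0.68 ± 0.12 with the block (adjusted p = 0.0053). Without the libraries numbered 4 it was 0.78 (adjusted p = 0.0969). Lrp1 held 177, 226, 139 and 340 TPM in contralateral, 121, 150, 120 and 233 in Tdt- and 116, 114, 73.1 and 143 TPM in Tdt+ libraries. Tdt+ was the lowest of the 3 groups in each number. The log2 difference from contralateral cells was -0.94 ± 0.29 (adjusted p = 0.193), or -0.94 ± 0.12 with the block (adjusted p = 0.000622). Without the libraries numbered 4 it was -0.84 (adjusted p = 0.0731).

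Apoc2 held 10.2, 2.75, 1.05 and 14.13 TPM in contralateral, 13.2, 9.32, 5.76 and 28.31 in Tdt- and 16.9, 11.7, 5.58 and 38.6 TPM in Tdt+ libraries. It was higher in Tdt+ than in contralateral cells in each number (log2 1.38 ± 0.23 with the block, adjusted p = 0.00464). The group ranges overlapped, and with quantile normalization and no block its adjusted p was 0.499. Abcg1 held 60.5, 73.1, 55.6 and 121 TPM in contralateral and 52.5, 46.2, 36.1 and 78.9 TPM in Tdt+ libraries, lower in each number (log2 -0.52 ± 0.11 with the block, adjusted p = 0.0196). Its group ranges overlapped too, and quantile normalization with no block gave an adjusted p of 0.766. Apoc1 was at or below 1.94 TPM in contralateral and 2.7 to 8.57 TPM in Tdt+ libraries, without overlap, as for 2.3% of all genes (adjusted p = 0.269, or 0.108 with the block). Pltp, which passed the filter through the Tdt+ group alone, held 0.26 to 1.38 TPM in contralateral and 1.35 to 5.63 TPM in Tdt+ libraries (adjusted p = 0.372, or 0.155 with the block). Abca1 and Dgat1 overlapped between these groups, at 38.8 to 74.5 against 36.4 to 54.5 TPM and at 39.9 to 54.5 against 35.0 to 49.8 TPM. Lpl overlapped too, at 7.83 to 29.3 against 4.13 to 70.8 TPM. Nr1h3 held 0 to 2.96 TPM in contralateral and 1.27 to 4.93 TPM in Tdt+ libraries (adjusted p = 0.499, or 0.0853 with the block). The 10 microglia markers summed to 25883.5 to 34442 TPM in contralateral and 17162 to 25743 TPM in Tdt+ libraries, without overlap. Endothelial markers summed to 7.92 to 16.4 TPM in contralateral and 3.03 to 8.17 TPM in Tdt+ libraries. Pecam1 was highest among the endothelial markers, at means of 9.44 and 4.085 TPM. The part of the microglia and endothelial markers was not tested.

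Between Tdt+ and Tdt- cells after LPS 0% of all genes passed, with 618 (4.61%) at an unadjusted p below 0.05, and none of the 10. With the block 62 genes passed (0.463%, of which 0.299% higher and 0.164% lower) and none of the 10, with Lrp1 nearest at an adjusted p of 0.138. Between Tdt- and contralateral cells 2 genes passed (0.0149%), none of them of the set, and 770 (5.75%) reached an unadjusted p below 0.05. With the block 119 passed (0.888%, of which 0.642% higher and 0.246% lower) and none of the 10. Nearest was Apoc2 (log2 1.12 ± 0.23, adjusted p = 0.0601). Same-numbered residuals of these 2 groups correlated at 0.0741 to 0.563. Interactions of LPS with the 3 contrasts were tested over 12085 genes. For Tdt+ against contralateral cells 0.397% passed, and for the other 2 contrasts 0% passed, with 434 and 634 genes at an unadjusted p below 0.05. None of the 9 members tested passed in any. The LPS interaction of Apoe for Tdt+ against contralateral cells was -0.05 ± 0.30 (adjusted p = 0.992), and 0.25 with quantile normalization. Of 40 pathway genes, Msr1 was higher in Tdt+ than in contralateral cells after LPS, at 239 ± 45 against 92.9 ± 40.3 TPM (log2 1.44 ± 0.28, adjusted p = 0.0214, n = 4 each). Leaving out Tdt+ replicate 1, 3 or 4 or contralateral replicate 2 or 3 raised its adjusted p to between 0.0549 and 0.0938. Its adjusted p was 0.0618 without a filter on low values and 0.0533 without the intensity trend. The block lowered it to 0.000146. In Tdt- libraries Msr1 was at 157 ± 33 TPM, and its log2 difference from contralateral cells was 0.84 (adjusted p = 0.737, or 0.0243 with the block). Trem2 was at 537 ± 164 TPM in Tdt+ and 931 ± 168 TPM in contralateral libraries after LPS (adjusted p = 0.13), and its LPS interaction for that contrast was -0.79 ± 0.25 (adjusted p = 0.269, or 0.000614 with a replicate block). That block called 317 of the 12085 genes in this interaction. It also covered the day 28 libraries without LPS, whose numbers did not meet the pairing rule.

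**Figure D5:**
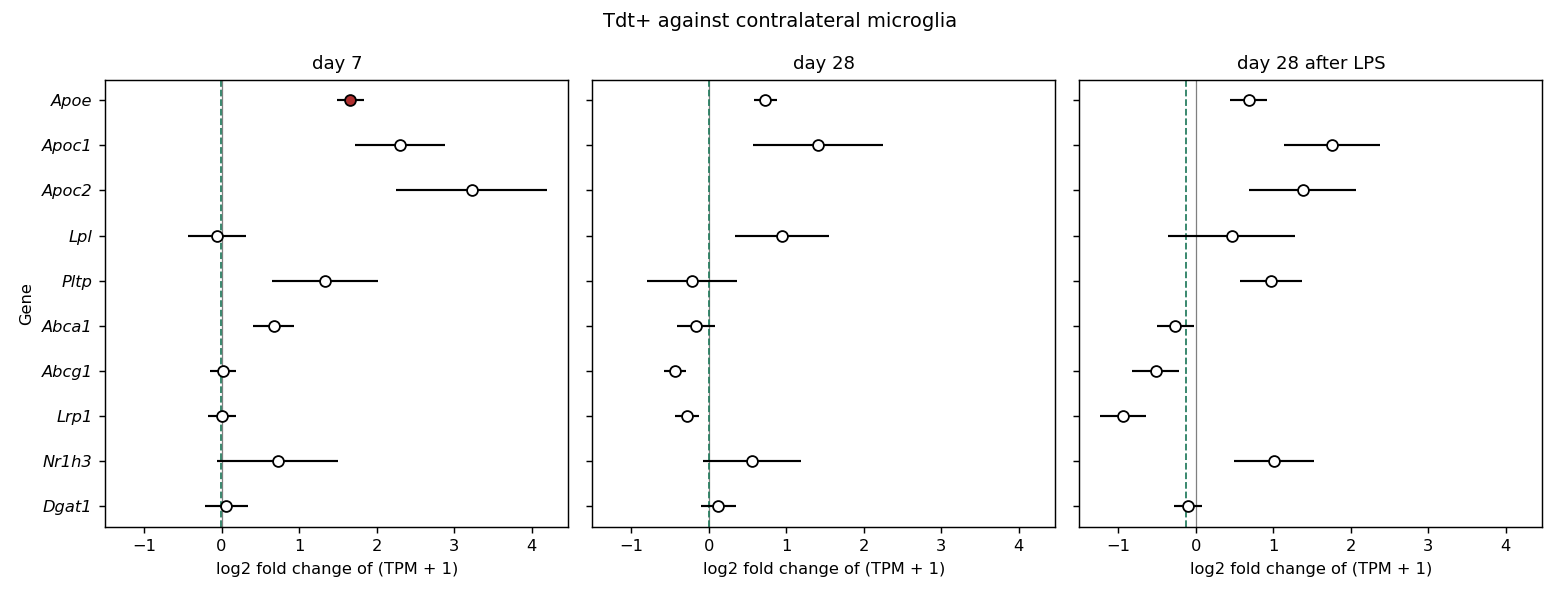
Log2 fold change of TPM + 1 with its SE for Tdt+ against contralateral microglia in the day 7, day 28 and LPS tables, without a replicate block. Red points passed an adjusted p of 0.05, white points did not, and the dashed green line is the median of all genes tested. Apoe at day 7 is the red point, and Apoc2 at day 28 was not tested.

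Tdt+ cells of day 7 and of day 28 occur in 2 tables each, and the tables do not give the same levels. Apoe at day 7 was 53724 ± 8018 TPM (n = 3) in the day 7 table and 21645 ± 7467 TPM (n = 5) in the time course. Abca1 at day 7 was 32.3 ± 7.6 and 180 ± 20 TPM, Abcg1 581 ± 120 and 160 ± 21 TPM, and Lpl 21.2 ± 11.02 and 70.0 ± 9.7 TPM in the same order. Spp1 itself was 534 to 922 TPM in the day 7 table and 0 to 2.05 TPM at day 7 of the time course. At day 28 Apoe was 4179.7 ± 815.0 TPM in the day 28 table and 1899.7 ± 163.8 TPM in the time course, and Abca1 18.6 ± 1.7 and 128 ± 6 TPM. Cohort, preparation and table cannot be told apart here, so levels were tested within a table only. Orders and correlations over groups of different tables are descriptions, and they can follow the table.

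Ordered by mean over all 13 groups, Apoe ran from 53724 TPM in day 7 Tdt+ cells to 1899.7 TPM in day 28 Tdt+ cells of the time course. The only neighbours in this order that did not overlap were day 7 contralateral (16909 TPM) and day 14 Tdt+ (5487 TPM). Apoc1, Lpl, Pltp and Abca1 had their largest listed means at day 3 of the time course, and the values there overlapped no other group. For Abca1 the first 4 places were the 4 time course groups. Abcg1 ran from 581 TPM in day 7 Tdt+ to 53.4 TPM in Tdt+ cells after LPS, and Lrp1 from 311 TPM at day 7 of the time course to 111 TPM in Tdt+ cells after LPS. Dgat1 ran from 126 TPM in day 28 Tdt+ to 24.5 TPM at day 3 of the time course. Apoc2 was highest in day 7 Tdt+ (63.5 TPM), and Nr1h3 had no neighbours in its order that stood apart.

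The shape of each gene over the 13 group means was compared with 8812 genes by Pearson correlation of log2(TPM + 1), as a description, since groups of a table share their preparation. The comparison took genes whose highest group mean reached 10 TPM, without ribosomal, mitochondrial, immune receptor and predicted genes. Apoe and Apoc1 tracked each other (r = 0.97), and both were nearest to Gpx3, a secreted glutathione peroxidase (r = 0.96 and 0.97), and Rrm2, a subunit of ribonucleotide reductase (r = 0.96 and 0.97). Apoc2 was nearest to Ms4a4a (r = 0.96) and Cyp4f18 (r = 0.95). Lpl was nearest to the histone genes H2bc18 and H1f5 (r = 0.94 each), and Pltp to Gpnmb, a lysosomal glycoprotein (r = 0.95), and Fcna (r = 0.93). Abca1 was nearest to Cers6, a ceramide synthase (r = 0.98), and Abcg1 to Higd2a (r = 0.99). Between the exporters Abca1 and Abcg1 r was -0.33. Lrp1 was nearest to Tmem44 (r = 0.95), Dgat1 to Dedd (r = 0.98) and Nr1h3 to Naa40 (r = 0.85). Abca1 and Dgat1 ran in opposite directions (r = -0.86).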

How the data were processed

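Bulk RNA of sorted microglia was analysed in 52 of 60 listed samples. Accessibility libraries (6) and pooled single-cell samples (2) were left out. The submitters' processing notes, per the labels, name cutadapt 2.10, STAR 2.7.5c, RSEM 1.3.3 and edgeR 3.32.0, with GRCm38. Values in the 4 tables are TPM computed and deposited by the authors, with the same sum in each library, so the depth and its precision are unknown and no interval that needs depth is given. There were 7 columns of contralateral Tdt+ cells that match no listed sample, and they were not used. Reading contralateral samples as the Tdt- columns was a choice. The labels give neither the dose nor the timing of LPS, and do not say that libraries are separate animals, so p-values measure only the spread between these samples.

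A count model was foreseen, but since the tables hold TPM log2(TPM + 1) was tested with limma 3.58.1 (R 4.3.3), its variance prior following intensity. A gene entered when its TPM reached 1 in a number of libraries equal to the smallest group, 1 fit held all groups of a table, and Benjamini-Hochberg adjustment covered each gene tested, with a threshold of 0.05. The fits were tested on simulated data. Folds are on the log2(TPM + 1) scale, which understates changes of low genes. Interactions joined tables that were normalized separately. The 10 members are given by value or in the counts of each comparison. Of the 6 pathway lists with 56 genes, up to 4 called genes of largest fold are named per comparison, or up to 2 of smallest p where none passed, some of which are not reported here. Trem2 is named outside this rule. The members and lists were chosen with earlier results of these data known.

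Replicate numbers were taken to pair samples where each same-numbered pair of residuals correlated above 0.1. This held after LPS for Tdt+ with contralateral libraries (0.194 to 0.551) and for Tdt+ with Tdt- libraries (0.123 to 0.524). It did not hold for Tdt- with contralateral libraries after LPS (0.0741 to 0.563) or in the other tables. At day 7 same-numbered residuals still correlated above all others for contralateral with Tdt+ libraries (0.0824 to 0.132, others at most 0.0188). The same was seen for contralateral with Tdt- libraries at day 7 (0.0475 to 0.166, others at most 0.0251) and narrowly at day 28 (0.0483 to 0.182, others at most 0.0462). Pairing there stays possible, and these tables are reported from fits without the block.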

Additional observations from a re-analysis of the deposited data

Results flagged for a closer look

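Among 89 combinations of a gene and a group of 4 or 5 libraries, 10 held a library far from the others of its group. The rule would set about 1 in 20 such groups apart by chance if values were normally distributed. TPM values with many at 0 are not, so that rate does not hold here. A lone value above 0 is set apart by construction in a group with a mean of 1 TPM or more. The interaction tests of the 10 genes gave 0 calls. Of these 10, 4 lay in day 28 Tdt- replicate 1: Apoe at 2808 TPM against 2215 to 2280 in the other 3, Apoc1 at 10.8 TPM against 0, Abca1 at 28.33 TPM against 15.5 to 17.3, and Dgat1 at 176 TPM against 95.8 to 98.3. Day 28 Tdt- replicate 4 held Nr1h3 at 6.29 TPM against 0 to 0.26 TPM. In the time course, Apoc2 stood at 11.1 TPM in day 7 replicate 3 and at 7.97 TPM in day 14 replicate 5, with the others at 0. Pltp stood at 54.8 TPM in day 3 replicate 2 against 32.0 to 37.4, and at 4.88 TPM in day 28 replicate 2 against 0 to 0.57 TPM. Dgat1 stood at 59.9 TPM in day 7 replicate 5 against 33.8 to 38.5 TPM.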

How the results depend on the processing

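The alternatives were a pseudocount of 0.1, no filter or a minimum of 10 TPM, quantile normalization, no intensity trend, a replicate block and each library left out in turn. The LPS results without the libraries numbered 4 were added after seeing the data. No called result turned its direction. Under quantile normalization some differences that did not pass changed sign, such as that of Apoe in the LPS interaction for Tdt+ against contralateral cells (-0.05 to 0.25). The count of members called at day 7 for Tdt+ against contralateral cells was 1, and 0 without a filter, 0 without the trend and 0 to 1 with a library left out. From day 14 to day 28 it was 1, and 2 with a pseudocount of 0.1 and 1 to 2 with a library left out. The other 15 counts stayed within 1.5 times or at 0 apart from the block, and with a library left out the time course counts ranged from 8 to 9 for day 7 against day 3, 4 to 5 for day 14 against day 7 and 8 to 9 for day 28 against day 3. Of the results for single genes, 14 lost and 9 gained a call under another setting, and 21 lost and 7 gained one with a library left out, where Lrp1, Cd36 and Msr1 made up all but 1 of the losses. The cause was not tested.

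With the replicate block, the count for Tdt+ against contralateral cells after LPS was 4 in place of 0. In the other tables the numbers did not meet the pairing rule, though at day 7 they tracked the residuals of contralateral with either stroke cortex group. The block changed no count of members in these tables by over 1.5 times. Unknown depth limits genes near 0 TPM, above all Apoc1, Apoc2, Pltp and Nr1h3.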
